A study of Homo sapiens with 6 samples.

Results

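The 9 genes described here cover the making, storage, release and sensing of transforming growth factor beta (TGF-beta). They are TGFB1, which encodes the ligand, LTBP1, LTBP3 and LRRC32 for its latent storage, FURIN and THBS1 for its processing and activation, TGFBR1 and TGFBR2 for its receptors, and SMAD7 for negative feedback. They were chosen from measured values of the same libraries, because LRRC32 and THBS1 were higher after propionate treatment, and the other 7 genes were added as their partners in the pathway. They are 9 of 58735 genes counted, and all 9 were among the 15078 genes tested. Because the choice used this contrast, the values of the 9 genes are given as a description. Calls and p-values printed for them describe the fits and are not read as tests.

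The mRNA data came from Meg-01, an established human megakaryoblast cell line that can form platelet-like particles. The 3 control libraries came from untreated cells, and the 3 C3 libraries from cells given sodium propionate, a short-chain fatty acid of gut bacteria called C3, at 500 µM for 48 h. This time is that of the sample labels of the C3 libraries, those of the control libraries give none, and the methods of the study name more than 1 incubation time before RNA extraction. The replicates are described by the study as technical ones, so p-values measure only the spread between these libraries. Total counts were 19318595, 18050689 and 16159449 in control replicates 1 to 3, and 16513025, 18652292 and 22821722 in C3 replicates 1 to 3.

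TGF-beta is secreted in a latent form, in which the cleaved propeptide still wraps the growth factor. Latent TGF-beta is tethered either to the matrix by LTBP proteins or to the cell surface by GARP, the product of LRRC32, which is known from platelets, megakaryocytes and regulatory T cells. Thrombospondin-1, the product of THBS1 and a major protein of platelet alpha granules, can release the active ligand from its propeptide, after which the receptors phosphorylate SMAD proteins and SMAD7 limits the signal.

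Across all tested genes, 761 were called higher and 222 lower after C3 treatment by edgeR's quasi-likelihood test, where a gene was called if it passed 0.01 after adjustment and differed by more than 1.3 times. These are 5.05% and 1.47% of tested genes, or 6.52% in either direction. The higher genes made up 77.4% of the calls, and 91.1% when libraries were scaled by library size alone (1025 higher and 100 lower). Of the 9 genes, 3 met these gates as higher, LRRC32, THBS1 and SMAD7. None of the 9 met them as lower with edgeR, DESeq2 or limma-voom. At an unadjusted p below 0.05, 0 had a negative fold change, beside 2314 of all 15078 tested genes. For 5 of the 9, each C3 library lay above each control library, as it did for 17.5% of tested genes, while 16.9% of tested genes had all C3 libraries below. Nothing is read from these counts, since the contrast itself chose the genes.

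**Figure D1:**
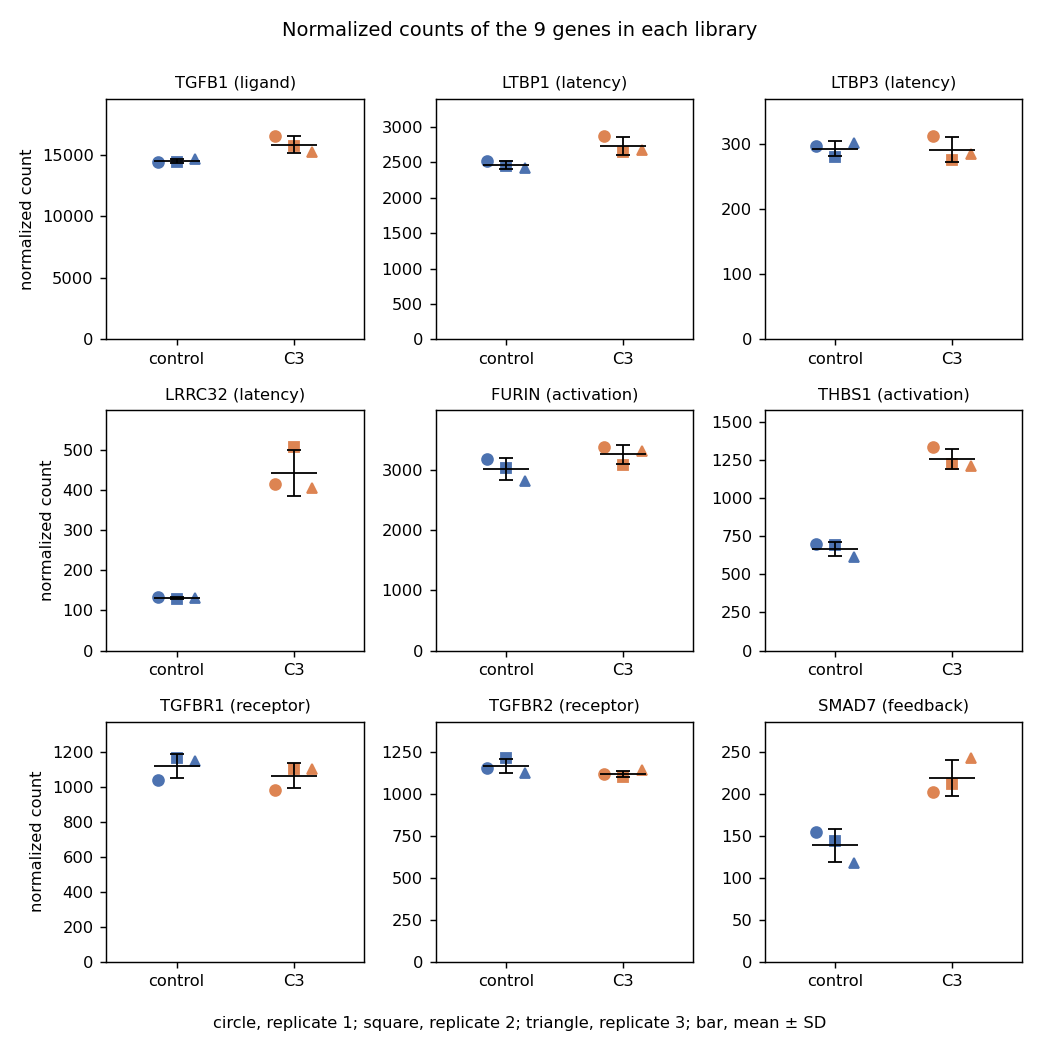
Normalized counts (vertical axes, each from 0) of the 9 genes in the 3 control and 3 C3 libraries, with the mean and SD of each group as bars. LRRC32, THBS1 and SMAD7 show the widest gaps between groups relative to their level, and LTBP3, FURIN, TGFBR1 and TGFBR2 overlap.

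The ligand gene was TGFB1 (ENSG00000105329), on the reverse strand at chr19:41301587-41353922 of GRCh38. Its normalized counts, which are counts scaled to a common library size, were 14420, 14384 and 14626 in control replicates 1 to 3 and 16518, 15729 and 15192 in C3 replicates 1 to 3. All C3 libraries were above all control libraries, but the log2 fold change was only 0.13 (SE 0.063), or 0.20 with library size alone, a rise of the mean from 14476 ± 131 to 15813 ± 667 (SD, n = 3 each). In bulk samples such as these, a change in the RNA per cell and a change in the share of cells that hold it cannot be told apart. Some 6.59% of the exon bases of TGFB1 overlap HNRNPUL1 on the opposite strand, and no strand setting is given for the counts, so reads there cannot be assigned with certainty.

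TGFB1 was nearly the whole ligand pool of these cells at the mRNA level. TGFB3 had 18.7 ± 8.44 normalized counts in control and 21.6 ± 4.33 in C3 libraries, with overlapping groups and a log2 fold change of 0.21 (SE 0.36; edgeR adjusted p = 0.74). TGFB2 had too few counts to pass the count filter, with at most 3.92 normalized counts in any library. Per length, TGFB1 stood at 238 ± 2.1 CPM (counts scaled to a library total of 1e6) per kilobase in control cells against 0.192 for TGFB3.

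Among the genes of latency, LRRC32 (ENSG00000137507, reverse strand, chr11:76657524-76670747) had the largest fold change of the 9 genes. Its normalized counts were 134, 129 and 130 in control replicates 1 to 3, and 414, 507 and 404 in C3 replicates 1 to 3. The control libraries were nearly equal, with a coefficient of variation of 1.98%, whereas the C3 libraries were all more than 3 times as high and varied by 12.9%, with replicate 2 the highest. The mean went from 131 ± 2.6 to 442 ± 56.9, a fold of 3.36 and a log2 fold change of 1.75 (SE 0.11). It ranked 50 of 15078 genes by log2 fold change.

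The matrix tether LTBP1 (ENSG00000049323; forward strand, chr2:32946953-33399509) had 2516, 2454 and 2414 normalized counts in control and 2872, 2642 and 2672 in C3 replicates 1 to 3. The groups were apart, by a log2 fold change of 0.15 (SE 0.062), close to that of TGFB1. LTBP3 (ENSG00000168056; reverse strand, chr11:65538559-65558930), a second LTBP that binds the latent ligand, had overlapping groups, with 279 to 301 normalized counts in control and 276 to 312 in C3 libraries. Its log2 fold change was -0.01 (SE 0.099), and 0.06 with library size alone.

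The other cell-surface tether, NRROS, is the myeloid relative of GARP and was chosen for mention after its values were seen. Its normalized count was 2914 ± 40.9 in control and 2570 ± 212 in C3 libraries, with all C3 libraries below all control libraries, a log2 fold change of -0.18 (SE 0.065) and an edgeR adjusted p-value of 0.049, which did not pass the gates. NRROS mRNA stood 34.1 times above LRRC32 mRNA in CPM per kilobase in control cells and 8.95 times above it in C3 cells. Part of the exon bases of NRROS, 7.65%, are shared with PIGX on the same strand.

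Ratios within each library set the tethers against the ligand without any scaling between libraries. The log2 ratio of LRRC32 to TGFB1 normalized counts was -6.75, -6.80 and -6.81 in control replicates 1 to 3 and -5.32, -4.96 and -5.23 in C3 replicates 1 to 3. LRRC32 thus gained 1.62 log2 units on its ligand, with no overlap between groups. The log2 ratio of LTBP1 to TGFB1 was -2.56 ± 0.04 in control and -2.54 ± 0.034 in C3 libraries, with overlapping groups, so the matrix tether and the ligand kept the same proportion within the spread of the libraries. LRRC32 also gained 1.93 log2 units on NRROS, and LTBP1 gained 0.16 on LTBP3.

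**Figure D2:**
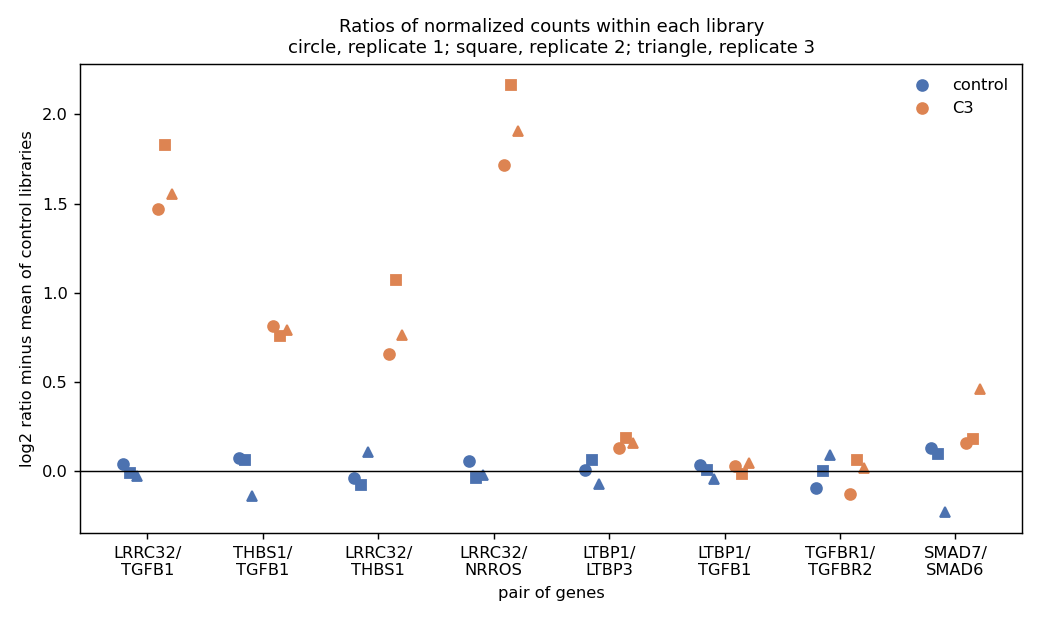
Log2 ratio of normalized counts of gene pairs in each library, minus the mean of the control libraries (vertical axis, log2 units; horizontal axis, pairs). C3 libraries lie 1.62 above control for LRRC32 to TGFB1 and 0.79 above for THBS1 to TGFB1, while LTBP1 to TGFB1 and TGFBR1 to TGFBR2 overlap.

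For activation, FURIN (ENSG00000140564; forward strand, chr15:90868588-90883564) encodes the protease that cuts the TGF-beta propeptide. Its normalized counts were 2816 to 3187 in control and 3081 to 3379 in C3 libraries. The groups overlapped, and the log2 fold change was 0.11 (SE 0.065), or 0.07 without control replicate 3 and 0.18 with library size alone.

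THBS1 (ENSG00000137801; forward strand, chr15:39581079-39599466) had normalized counts of 698, 691 and 612 in control replicates 1 to 3 and 1334, 1224 and 1209 in C3 replicates 1 to 3. The lowest C3 library was far above the highest control library, and the spread within groups was small, at 7.1% of the mean in control and 5.42% in C3. The mean went from 667 ± 47.4 to 1256 ± 68.1, a fold of 1.88 and a log2 fold change of 0.91 (SE 0.073). THBS1 shares 7.58% of its exon bases with FSIP1 and an antisense RNA on the opposite strand. FSIP1 itself had only 11.7 ± 3.84 normalized counts in control and 19.0 ± 2 in C3 libraries. Within libraries, THBS1 gained 0.79 log2 units on TGFB1, and LRRC32 gained 0.83 on THBS1, both without overlap between groups.

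The sequences before the starts of THBS1 and SMAD7, which were both higher in C3 libraries, are shown with that of TGFB1, which differed little. Of the 9 genes, 8 had an entry among the RefSeq promoter sequences (GRCh38.p14), and LRRC32 did not. The 250 bases upstream of the start are given from 5′ to 3′ on the strand of each gene, and none of them lies in an exon annotated on that strand. Capitals mark CAGAC or its reverse complement GTCTG, the core of the SMAD box, and GGGCGG or its reverse complement CCGCCC, the GC box, which do not overlap here.
THBS1 at chr15:39580829-39581078, forward strand: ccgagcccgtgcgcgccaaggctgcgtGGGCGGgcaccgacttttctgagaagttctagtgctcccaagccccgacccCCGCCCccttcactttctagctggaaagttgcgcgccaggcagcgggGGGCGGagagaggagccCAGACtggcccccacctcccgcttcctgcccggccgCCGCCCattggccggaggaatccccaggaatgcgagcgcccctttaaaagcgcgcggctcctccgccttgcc
SMAD7 at chr18:48950966-48951215, reverse strand: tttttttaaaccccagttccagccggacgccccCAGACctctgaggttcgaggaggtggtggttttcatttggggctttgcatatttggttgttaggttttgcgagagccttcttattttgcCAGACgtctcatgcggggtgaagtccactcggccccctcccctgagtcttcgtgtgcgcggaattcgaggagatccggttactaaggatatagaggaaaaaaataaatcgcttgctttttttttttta
TGFB1 at chr19:41353923-41354172, reverse strand: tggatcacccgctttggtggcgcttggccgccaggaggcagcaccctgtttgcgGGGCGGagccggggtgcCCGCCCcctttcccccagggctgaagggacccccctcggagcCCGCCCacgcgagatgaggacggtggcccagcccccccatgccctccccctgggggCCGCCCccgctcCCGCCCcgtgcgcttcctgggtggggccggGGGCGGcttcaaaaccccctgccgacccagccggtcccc

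The THBS1 stretch held 1 CAGAC, which begins 108 bases before the start, and 4 GC boxes. The SMAD7 stretch held 2 CAGAC, which begin 217 and 128 bases before the start, and no GC box. The TGFB1 stretch held 6 GC boxes and no CAGAC. Some genes have more than 1 RefSeq window. CAGAC was found in at least 1 window of THBS1, SMAD7, LTBP1, FURIN and TGFBR1, and in none of TGFB1, LTBP3 and TGFBR2. Not all windows of SMAD7, FURIN and TGFBR1 held it. Of 34943 promoter windows of the same length, 38.0% held CAGAC on either strand and 42.5% held GGGCGG, so both are common letters. CCAAT, on either strand, was found 1 time in the THBS1 stretch and not in the others (32.0% of windows), and TATAAA in none of the 3 (10.8%). The GC content was 69.6% for THBS1, 76.8% for TGFB1 and 48.0% for SMAD7. These matches are descriptions of letters, and binding was not measured.

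The list of latency and activation genes had 27 genes, 5 of them among the 9, and 23 were tested. Outside the 9, 18 were tested, 3 were called higher, PCSK5, ITGB5 and FBN1, beside 5.05% of all tested genes, and none lower by edgeR, beside 1.47% (0 by DESeq2 or limma-voom). At an unadjusted p below 0.05, 1 of these genes was lower, beside 2314 of all 15078 tested genes. Their median log2 fold change was 0.25, against 0.0021 over all tested genes, and with LRRC32, THBS1 and the other 3 included it was 0.21. PCSK5, a convertase related to furin, rose from 103 ± 7.84 to 186 ± 24.6 normalized counts, with a log2 fold change of 0.85 (SE 0.14; adjusted p = 0.00011). ITGB5, the beta subunit of an alpha-v integrin that binds the latent propeptide, had 617, 608 and 582 normalized counts in control and 984, 902 and 940 in C3 replicates 1 to 3, and rose by 0.64 log2 units (SE 0.072; adjusted p = 4.6e-07).

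FBN1, the fibrillin on which LTBP proteins are deposited, rose from 121 ± 7.42 to 177 ± 7.44 normalized counts (log2 fold change 0.55, SE 0.13, edgeR adjusted p = 0.0036). Its call was lost without C3 replicate 3, control replicate 1 or control replicate 2, with log2 fold changes of 0.54, 0.51 and 0.57. The partner of ITGB5, ITGAV, chosen for mention after its values were seen, had 1490 ± 21.2 and 1717 ± 187 normalized counts with overlapping groups and was not called (log2 fold change 0.21, SE 0.071, edgeR adjusted p = 0.041). The most abundant gene of this list that was not called was HSP90B1, the chaperone needed for GARP to reach the cell surface. It had 7012 ± 247 and 8535 ± 536 normalized counts, all C3 libraries above all control libraries, and a log2 fold change of 0.28 (SE 0.064; edgeR adjusted p = 0.0024), below the fold gate. ITGB6, an integrin subunit that activates TGF-beta in epithelia, was at 0 in every library.

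The signalling receptors among the 9 genes showed no gap between groups. TGFBR1 (ENSG00000106799; forward strand, chr9:99104038-99154192), the type I receptor kinase, had 1038, 1163 and 1149 normalized counts in control and 981, 1103 and 1103 in C3 replicates 1 to 3. TGFBR2 (ENSG00000163513; forward strand, chr3:30606601-30694142), the type II receptor that binds the ligand first, had 1156, 1213 and 1127 in control and 1118, 1103 and 1140 in C3 replicates 1 to 3. Both pairs of groups overlapped. The log2 fold changes were -0.07 (SE 0.071) and -0.06 (SE 0.066), and with library size alone they turned to 0.007 and 0.017. The log2 ratio of TGFBR1 to TGFBR2 within libraries was -0.06 ± 0.091 in control and -0.08 ± 0.098 in C3 libraries.

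In the list of 5 receptors, all tested, the other 3 stood higher in C3 libraries without overlap (17.5% of all tested genes did), and 2 of them were called (5.05%). Over all 5 receptors the median log2 fold change was 0.22. ACVRL1, the type I receptor ALK1 of endothelial cells, rose from 60.7, 42.4 and 52.5 normalized counts in control to 135, 121 and 126 in C3 replicates 1 to 3 (log2 fold change 1.28, SE 0.17, edgeR adjusted p = 7.4e-06). TGFBR3, the co-receptor betaglycan, rose from 80.5 ± 13.9 to 133 ± 6.99 (log2 fold change 0.72, SE 0.16, edgeR adjusted p = 0.0018). The TGFBR3 call was lost without C3 replicate 3, control replicate 1 or control replicate 3, with log2 fold changes of 0.72, 0.67 and 0.65. ENG, the co-receptor endoglin and the most abundant receptor gene of the list in normalized counts, had 3753 ± 103 and 4370 ± 252 (log2 fold change 0.22, SE 0.063, edgeR adjusted p = 0.015) and was not called.

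**Figure D3:**
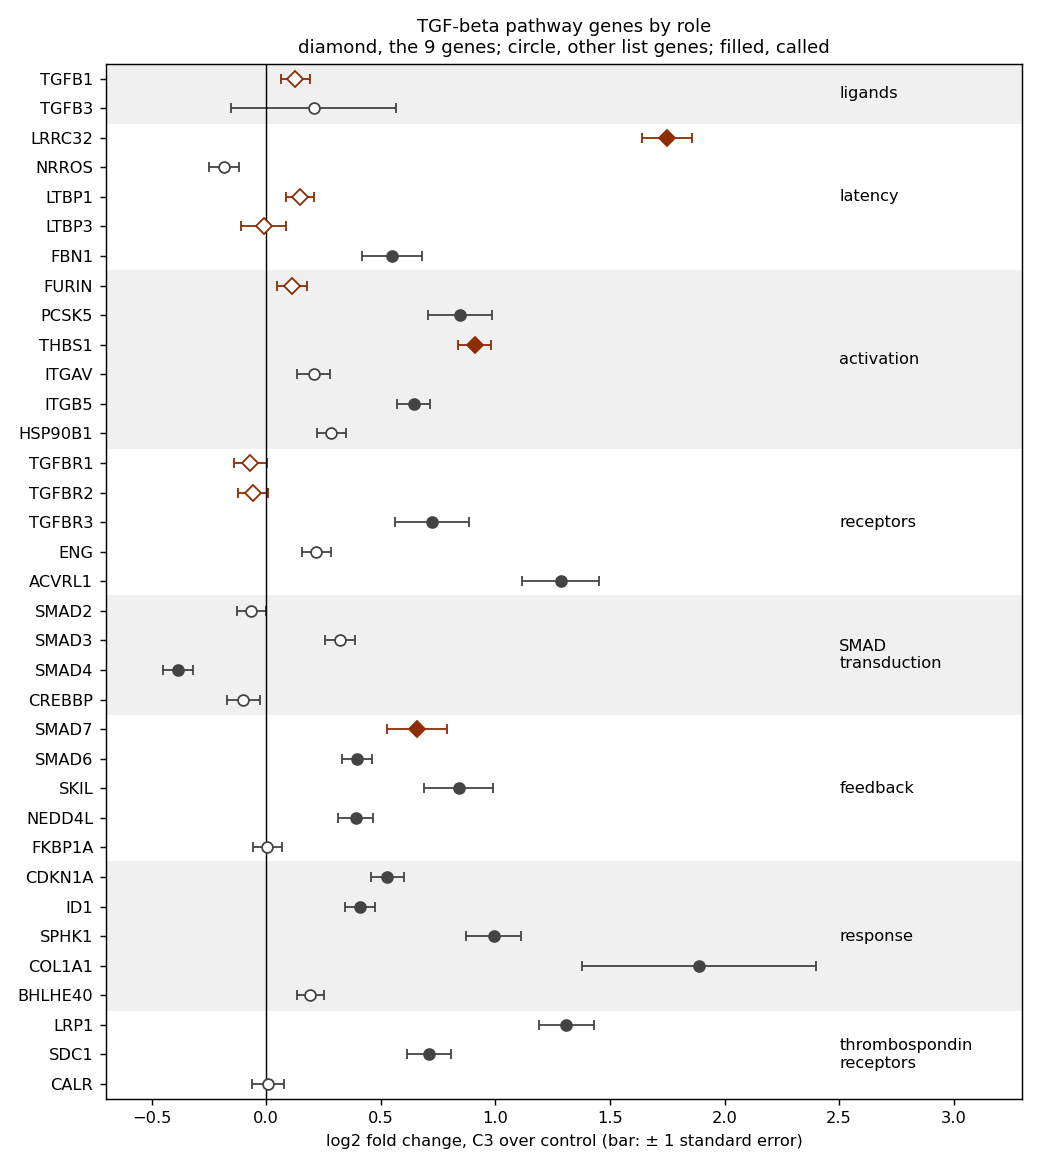
Log2 fold change of C3 over control (horizontal axis, with 1 standard error as bars) of the 9 genes as diamonds and, as circles, of a part of the other list genes, grouped by role, filled where the gates were met. The circles show most called list genes but few of those not called, so the share of filled points is not that of the lists. LRRC32 at 1.75 and LRP1 at 1.31 lie to the right, COL1A1 at 1.89 has the widest bar of those plotted, and SMAD4 at -0.38 is the filled point below 0.

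Of the 9 genes of SMAD transduction, all tested, SMAD4 was called lower, beside 1.47% of all tested genes, and none higher, beside 5.05%. The median log2 fold change was -0.05, or 0.03 with library size alone. SMAD4, the shared partner of the receptor-activated SMAD proteins, had 1232, 1275 and 1292 normalized counts in control and 990, 979 and 943 in C3 replicates 1 to 3. It fell by 0.38 log2 units (SE 0.066; edgeR adjusted p = 0.00015), a size just past the fold gate. The call was lost in 5 of 13 alternatives, with library size alone, where the log2 fold change was -0.31, with a mean count of at least 50 (-0.37), with no count filter (-0.37), and without C3 replicate 3 (-0.36) or control replicate 3 (-0.37). SMAD2 and SMAD3 are the SMAD proteins that TGF-beta receptors phosphorylate. SMAD2, with 2202 ± 135 and 2105 ± 17.7 normalized counts, overlapped between groups and was not called (log2 fold change -0.07, SE 0.063). SMAD3 was chosen for mention after its values were seen and had 955 ± 35.5 and 1193 ± 21.8 normalized counts (log2 fold change 0.32, SE 0.066, edgeR adjusted p = 0.0011), which missed the fold gate. With library size alone SMAD3 met it (0.40) and was called higher, so that under this scaling the list had 1 gene higher and none lower. CREBBP, a histone acetyltransferase that SMAD proteins recruit, also chosen after its values were seen, was close to SMAD2 in mean count, at 2219 ± 270 and 2073 ± 12.2, with overlapping groups and a log2 fold change of -0.10 (SE 0.072).

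SMAD4 was the only gene of the 8 pathway lists, which hold 129 genes and 112 tested genes, to be called lower by edgeR with TMM factors and no block, beside 1.47% of all tested genes. With RLE factors SMAD1, chosen for mention after its values were seen, at a log2 fold change of -0.41, was called lower as well. DESeq2 and limma-voom also called 1 list gene lower outside the 9. At an unadjusted p below 0.05, 6 list genes were lower, beside 2314 of all 15078 tested genes. Together the lists had 18 genes called higher of 112, beside 5.05% of all tested genes, and a median log2 fold change of 0.16. Without the 9 genes, 103 tested genes remained, of which 15 were called higher, with a median of 0.17. Without COL1A1 and COMP as well, these were 14 of 101. The lists were written with earlier results of these data known. The counts and shares given here and for each list are therefore descriptions and are not read as tests.

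SMAD7 (ENSG00000101665; reverse strand, chr18:48919853-48950965), the inhibitory SMAD that blocks the type I receptor, had normalized counts of 154, 144 and 117 in control replicates 1 to 3 and 202, 212 and 242 in C3 replicates 1 to 3. All C3 libraries were above all control libraries. Control replicate 3 was the lowest and C3 replicate 3 the highest of the 6. The mean went from 138 ± 19.1 to 218 ± 21.3, a fold of 1.58 and a log2 fold change of 0.66 (SE 0.13). Without C3 replicate 3 the log2 fold change was 0.58 and the gates were not met. The stretch before its start is printed above with those of THBS1 and TGFB1.

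The list of negative feedback and SMAD restraint had 18 genes, all tested, of which 4 were called higher, SMAD7 included, beside 5.05% of all tested genes, with a median log2 fold change of 0.06, or 0.04 without SMAD7. The number fell to 2 without C3 replicate 3, and the median was 0.10 without control replicate 1 and 0.13 with library size alone, a scaling that also moved the median of all tested genes to 0.08. SMAD6, the inhibitory SMAD of the bone morphogenetic protein (BMP) branch, had 1019, 982 and 996 normalized counts in control and 1313, 1354 and 1279 in C3 replicates 1 to 3, and rose by 0.40 log2 units (SE 0.065; edgeR adjusted p = 9.6e-05). Without C3 replicate 2 it was 0.38, under the fold gate. SKIL, a repressor of SMAD transcription that TGF-beta itself induces, rose from 126 ± 19.5 to 224 ± 52.6 (log2 fold change 0.84, SE 0.15, edgeR adjusted p = 0.00033). NEDD4L, a ubiquitin ligase of activated SMAD proteins, rose from 564 ± 23.9 to 738 ± 37.7 (log2 fold change 0.39, SE 0.076, edgeR adjusted p = 0.00059), and lost the call without C3 replicate 3 (0.35) or control replicate 1 (0.37). FKBP1A, which holds the type I receptor inactive, was the most abundant gene of the list that was not called, with 6922 ± 422 and 6947 ± 257 normalized counts. The log2 ratio of SMAD7 to SMAD6 was -2.86 ± 0.2 in control and -2.60 ± 0.17 in C3 libraries, with the closest libraries, at -2.73 and -2.71, nearly touching.

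Of 32 genes known to respond to TGF-beta in other cells, 29 were tested. Leaving out SMAD7, which is 1 of the 9, and COL1A1, described below, 4 of 27 were called higher, beside 5.05% of all tested genes, with a median log2 fold change of 0.31. With both included there were 6 of 29 and a median of 0.32, and 4 to 8 calls over the alternatives that kept the gates. For 15 of the 29 the lowest C3 library exceeded the highest control library, beside 17.5% of all tested genes. These 15 include SMAD7 and COL1A1, so the comparison with that share is not read. SMAD7 and SKIL belong to this list as well. SPHK1, sphingosine kinase 1, rose from 124, 127 and 121 normalized counts in control to 266, 234 and 243 in C3 replicates 1 to 3, a log2 fold change of 0.99 (SE 0.12; edgeR adjusted p = 1.7e-06). CDKN1A, the cell cycle inhibitor p21, rose from 764 ± 13.9 to 1102 ± 82.4 (log2 fold change 0.53, SE 0.072, edgeR adjusted p = 8.2e-06).

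ID1, a target of BMP-type SMAD signalling, rose from 1522 ± 79.3 to 2020 ± 125 normalized counts (log2 fold change 0.41, SE 0.066, edgeR adjusted p = 8.5e-05), and lost the call without C3 replicate 1 (0.36) or control replicate 2 (0.37). COL1A1, a collagen gene of fibroblasts, was called on very few counts, with 5.88, 5.30 and 2.39 normalized counts in control and 13.7, 10.5 and 26.7 in C3 replicates 1 to 3 (log2 fold change 1.89, SE 0.51, edgeR adjusted p = 0.0094). It reached 10 counts only in the C3 libraries and so passed the count filter only through the group in which it was higher, and nothing is read from its fold or its call. That call was lost with each library left out, where it either fell below the count filter or had an adjusted p-value of up to 0.043, and with DESeq2 and limma-voom. BHLHE40, the most abundant gene of the list that was not called, had 3148 ± 74.3 and 3596 ± 96.6 normalized counts (log2 fold change 0.19, SE 0.06, edgeR adjusted p = 0.025).

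Thrombospondins and their receptors formed a list of 11 genes, of which 10 were tested. Without THBS1, which was chosen for its rise, 2 of 9 were called higher, beside 5.05% of all tested genes, and the median log2 fold change was 0.28. COMP, named after its values were seen, reached 10 counts only in C3 libraries, and without it as well the median of the other 8 was 0.26. LRP1, an endocytic receptor that clears thrombospondin-1 and binds it with calreticulin, had 216, 200 and 143 normalized counts in control and 530, 429 and 445 in C3 replicates 1 to 3. It rose by 1.31 log2 units (SE 0.12; edgeR adjusted p = 1.8e-08). SDC1, a heparan sulphate proteoglycan, rose from 302 ± 29.5 to 497 ± 45.7 (log2 fold change 0.71, SE 0.096, edgeR adjusted p = 7.3e-06). CALR, the gene of calreticulin, was the most abundant of the list that was not called, with 41114 ± 897 and 41348 ± 2970 normalized counts and overlapping groups. CD47, named after its values were seen, went the other way, from 4399 ± 370 to 3784 ± 111 normalized counts. It was not called (log2 fold change -0.22, SE 0.066, edgeR adjusted p = 0.021). It was the 1 gene of the list with all C3 libraries below control, while 6 had all above, THBS1 and COMP among them. The shares of all tested genes were 16.9% and 17.5%.

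In level, the order of the 9 genes in control cells was TGFB1 at 238 ± 2.1 CPM per kilobase of merged exons, FURIN at 32.6 ± 2, LTBP1 at 18.0 ± 0.37, TGFBR2 at 9.14 ± 0.34, TGFBR1 at 7.51 ± 0.46, THBS1 at 3.91 ± 0.28, SMAD7 at 1.88 ± 0.26, LRRC32 at 1.58 ± 0.031 and LTBP3 at 1.36 ± 0.055. Of these neighbours, only SMAD7 and LRRC32 overlapped over their libraries. With the longest transcript in place of merged exons, LTBP3 moved from 1.36 to 3.25 and stood above SMAD7, so its place depends on the exon model. In C3 cells THBS1, at 7.37 ± 0.4, overlapped TGFBR1 at 7.14 ± 0.47, and LRRC32 moved above SMAD7, at 5.32 ± 0.69 against 2.97 ± 0.29. TGFB1 exceeded LRRC32 by 151 times in control and by 48.9 times in C3 cells, and THBS1 by 60.9 and 35.3 times.

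**Figure D4:**
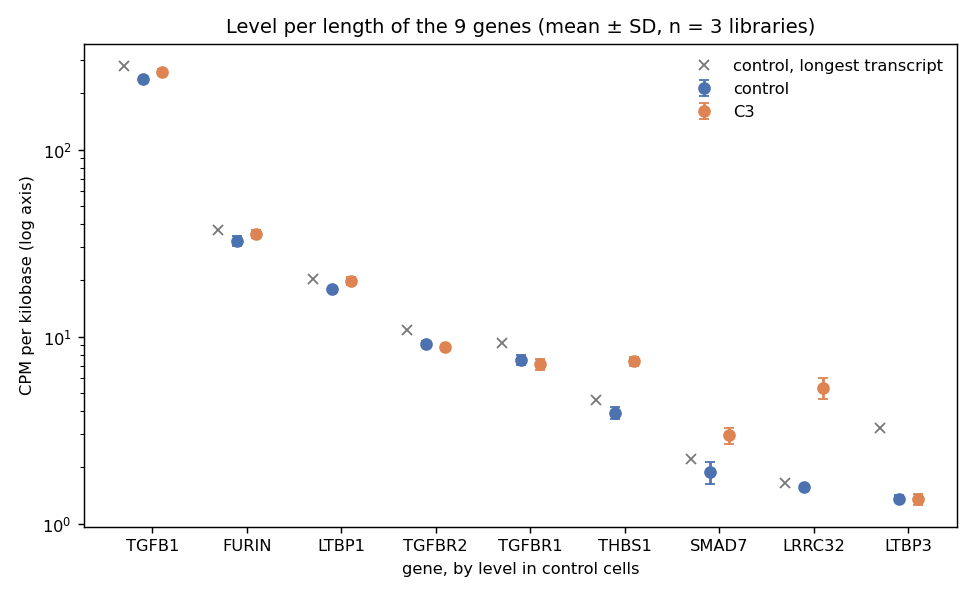
Level of the 9 genes in CPM per kilobase (vertical log axis; points, mean and SD of 3 libraries; crosses, control with the longest transcript as length), ordered by control level. LRRC32 goes from 1.58 to 5.32 and THBS1 from 3.91 to 7.37, while TGFB1 stays far above both at 238 and 260.

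The surroundings of both genes on the chromosome were examined within 250 kb. Near LRRC32 there were 15 other annotated genes, 7 of them tested, of which 1 was called higher, beside 5.05% of all tested genes. This was ACER3, an alkaline ceramidase gene 190112 bases away, which went from 1269 ± 65.9 to 1873 ± 194 normalized counts (log2 fold change 0.57, SE 0.073, edgeR adjusted p = 4e-06). TSKU, between both, had 656 ± 54.6 and 812 ± 83.9 (log2 fold change 0.30, SE 0.082, edgeR adjusted p = 0.011) and was not called. EMSY (0.12), EMSY-DT (-0.23), GVQW3 (0.07) and the RNA gene ENSG00000261578 (0.46) were not called either, with log2 fold changes as given in brackets.

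An antisense RNA of LRRC32, ENSG00000236304, which overlaps 1.95% of the LRRC32 exon bases, had 2.63 ± 1.95 normalized counts in control and 12.1 ± 4.65 in C3 libraries and was not called. It passed the count filter only through the C3 libraries, so its difference is not read further. Without strand, its reads and those of LRRC32 in the overlap cannot be told apart. Near THBS1, FSIP1 (0.72, SE 0.38, edgeR adjusted p = 0.20) and GPR176 (0.04, SE 0.071, edgeR adjusted p = 0.74) were the 2 tested of 10 other genes. Neither was called, beside 6.52% of all tested genes called in either direction.

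The genes most like LRRC32 over the 6 libraries, by the root-mean-square difference of centred log2 normalized counts among 11850 genes with a mean of at least 50, were RGS9 (0.129), CACNA1G (0.169) and PLEKHA4 (0.174). Those most like THBS1 were FGFR4 (0.033), TSPAN18 (0.0578) and SPHK1 (0.0632). The means of RGS9, 30.2 in control and 102 in C3 libraries, and of PLEKHA4, 26.5 and 79.1, passed 50 only through the C3 libraries. Since the 6 genes were picked for their likeness, their fold changes follow from the choice and are not read.

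The cell type label was compared with markers of megakaryocytes and of other cells. Of 14 megakaryocyte and platelet markers, 12 were tested, and their summed level was 1500, 1510 and 1440 CPM in control and 1480, 1350 and 1390 CPM in C3 replicates 1 to 3. ITGA2B, the alpha-IIb integrin, was the most abundant, with 696, 712 and 671 CPM in control and 716, 624 and 654 CPM in C3 replicates 1 to 3. PF4 and GP1BB were at 0 in every library, and they share 52.15% and 100% of their exon bases with other genes on the same strand, where counting by gene can drop reads. GP1BA and TUBB1 were called lower, as were 1.47% of all tested genes, with log2 fold changes of -0.49 (SE 0.061; edgeR adjusted p = 2.2e-06) and -1.36 (SE 0.31; edgeR adjusted p = 0.0025). TUBB1 had few counts, with 40.6 ± 2.07 normalized counts in control and 15.4 ± 5.5 in C3 libraries. It shares 35.53% of its exon bases with ATP5F1E on the opposite strand, and reads there cannot be assigned with certainty. Of the 12 tested markers, 5 had a positive log2 fold change. In 2 of these all C3 libraries were above control, as in 17.5% of all tested genes. These were ITGB3 (0.34, SE 0.11, edgeR adjusted p = 0.033) and SELP (0.15, SE 0.062, edgeR adjusted p = 0.095), and neither was called. In 4 all were below, as in 16.9% of all tested genes. These were GP1BA, TUBB1, NFE2 (-0.38, SE 0.066, edgeR adjusted p = 0.00019) and PPBP (-0.82, SE 0.42, edgeR adjusted p = 0.18). NFE2 and PPBP were not called. ITGB3 and PPBP share 33.18% and 34.74% of their exon bases with other genes on the same strand. The list's median was -0.07. The part of these markers in the differences of LRRC32 and THBS1 was not tested.

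Since GARP is also known from regulatory T cells, 10 T cell markers were read, of which 5 were tested. Their summed level, 275 to 289 CPM in control and 261 to 274 CPM in C3 libraries, was nearly all CD4, with CTLA4 at 0 in every library and FOXP3 at 7.74 ± 2.92 and 2.96 ± 1.52 normalized counts. Of 6 endothelial markers, 5 were tested, and their summed level was 84.3, 80.4 and 76.9 CPM in control and 112, 103 and 102 CPM in C3 replicates 1 to 3, led by TIE1. TEK was called higher among them (log2 fold change 0.59, SE 0.1, edgeR adjusted p = 0.00024), as were 5.05% of all tested genes. In 3 of the 5, TEK, TIE1 and CDH5, all C3 libraries were above control, as in 17.5% of all tested genes. TIE1 (0.35, SE 0.068, edgeR adjusted p = 0.00052) and CDH5 (1.01, SE 0.33, edgeR adjusted p = 0.031) were not called. CDH5 had few counts, with 16.4 ± 7.21 and 33.8 ± 4.29 normalized counts. ROBO4 went the other way with overlapping groups (-0.64, SE 0.31, edgeR adjusted p = 0.15), and the median of the 5 was 0.37. None of the 6 was at 0 in every library, and their part in the differences of ACVRL1, ENG and THBS1 was not tested. Of 7 fibroblast markers 4 were tested, of 6 monocyte markers 2 and of 8 erythroid markers 6. Fibroblast markers, led by LUM, summed to 37.1, 37.9 and 45.7 CPM in control and 29.0, 27.3 and 27.3 CPM in C3 replicates 1 to 3, and monocyte markers, led by LYZ, to 37.6, 37.3 and 38.8 CPM and 28.7, 28.8 and 29.8 CPM. LUM and LYZ, which make up most of these sums, were called lower, as were 1.47% of all tested genes, and FCGR3A was at 0 in every library. The other tested genes had positive log2 fold changes, COL1A1 as above, DCN 0.83, COL3A1 0.32 and, among monocyte markers, CSF1R 0.26, and the last 3 were not called. The median was 0.58 for the fibroblast list, or 0.32 over the 3 genes other than COL1A1, and -0.12 for the monocyte list. Erythroid markers, led by KLF1, summed to 50.4 to 55.9 CPM in control and 54.8 to 60.3 CPM in C3 libraries, of which KLF1 alone was 34.1 to 39.3 and 39.7 to 41.0 CPM. None of the 6 tested was called, beside 6.52% of all tested genes in either direction. HBA2 was lower in every C3 library (-0.68, SE 0.21, edgeR adjusted p = 0.024) and ALAS2 higher (0.56, SE 0.19, edgeR adjusted p = 0.037), 3 were negative, and the median was 0.04.

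Of the libraries themselves, control replicate 3 and C3 replicate 1 stood apart from their groups on the second principal component, which held 17.4% of the variance against 45.5% for the first, which separated the groups. LRRC32 and THBS1 had log2 fold changes of 1.64 to 1.82 and 0.85 to 0.98 over all 13 alternatives, which include each library left out. As both were chosen for their rise in these libraries, nothing is read from these ranges.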

How the data were processed

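The authors processed reads with fastp, mapped them with STAR (2.6.1d) to GRCh38/hg38 and counted them with featureCounts (1.5.0-p3), per the study's methods and processing notes. Sources used here do not give the annotation release or strand setting. The deposited table holds unscaled counts for each gene in 6 libraries, 3 per group, assigned by column names that match the sample labels.

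The count filter asked for 10 or more counts in 3 or more libraries, which left 15078 genes with 99.87% of counts. In R 4.3.3, the quasi-likelihood test of edgeR 4.0.16 compared the groups without a block, with TMM factors and Benjamini-Hochberg adjustment over all tested genes. Normalized counts are counts per effective library size, times the mean of that size. A standard error is the size of the log2 fold change over the root of its F statistic. The common dispersion of 0.00386 equals a coefficient of variation of 6.21% between libraries. Symbols, coordinates and exon lengths came from GENCODE on GRCh38 (58207 of 58735 identifiers matched), and promoter sequences from RefSeq.

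The 9 genes and all lists were chosen with earlier results of these data known. Named are the 9 genes, in each pathway list every called gene and the gene of highest mean count not called (most abundant), ligand and receptor genes that did not pass the count filter, the 3 most like genes and tested neighbours. Exceptions are marked, and CREBBP, ITGB6, TIE1 and the other named markers and integrins were also chosen after their values were seen. Alternatives were DESeq2 (1.42.0), limma-voom (limma 3.58.1), library size alone, RLE factors, a mean count of at least 50, no filter on counts, the replicate block, each library left out, and an adjusted p-value of 0.05 without a fold gate. The code was tested on simulated data. Recovery of changed genes fell short of the target set for it among genes of few counts, and the target was then applied to genes with a mean count of at least 50, where it was met. Calls among genes of few counts can therefore miss real changes.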

Additional observations from a re-analysis of the deposited data

How the results depend on the processing

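LRRC32 and THBS1 met the gates in all 13 alternatives, and SMAD7 in 12, with log2 fold changes of 0.56 to 0.76 and, without C3 replicate 3, 0.58 with an adjusted p-value of 0.012 (1.1e-05 to 0.012 over the alternatives). The other 6 genes met them in none. Since LRRC32 and THBS1 were chosen for their rise in these libraries, nothing is read from how often they met the gates. Leaving out 1 library each moved LTBP3 between -0.059 and 0.026 and gave log2 fold changes of 0.56 to 0.76 for SMAD7. With library size alone the log2 fold changes of LTBP3, TGFBR1 and TGFBR2 were 0.062, 0.007 and 0.017, and with a mean count of at least 50 that of LTBP3 was 0.002, so LTBP3 has no stable sign, while TGFBR1 and TGFBR2 were negative in the other 12 alternatives. Library size alone gave 0.20 for TGFB1, 0.22 for LTBP1 and 0.18 for FURIN (adjusted p 0.0085, 0.0095 and 0.04), under the fold gate, and a median of 0.08 over all tested genes. Without control replicate 3 FURIN was at 0.07. With an adjusted p-value of 0.05 and no fold gate, 1658 genes were higher and 1323 lower, and 33 and 5 pathway genes outside the 9. With library size alone 100 genes were lower. Leaving out 1 library each gave 129 to 340 genes lower, 129 without C3 replicate 3 and 340 without C3 replicate 1, and 0 to 1 pathway genes lower. Pathway genes called lower were 2 with RLE factors and 2 with the replicate block, SMAD4 and SMAD1 (adjusted p of SMAD1 just under 0.01 and 0.0034, and 0.0034 to 0.083 over its alternatives), and 0 with library size alone, a mean count of at least 50 or no count filter. The replicate block gave 909 genes higher and 268 lower, and changed no call of the 9 genes. The deviations of same-numbered libraries correlated at 0.134, -0.08 and 0.087, and not every library correlated best with its own number. From so few libraries these values cannot tell whether same-numbered libraries were handled together. The causes of the differences between alternatives were not tested. Genes of few counts, such as TGFB3, COL1A1 and the antisense RNA of LRRC32, are limited by depth.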

Other observations

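The activin and BMP branches, which share SMAD4 and the inhibitory SMAD proteins with TGF-beta, formed a list of 29 genes, of which 21 were tested and 1 was called higher, beside 5.05% of all tested genes. The median log2 fold change was 0.10, or 0.18 with library size alone. BMP7, a secreted BMP ligand, had 335, 369 and 302 normalized counts in control and 485, 445 and 469 in C3 replicates 1 to 3, and rose by 0.47 log2 units (SE 0.092; edgeR adjusted p = 0.00061). BMP6, the most abundant gene of the list that was not called, had 1354, 1306 and 1328 normalized counts in control and 1158, 1166 and 1144 in C3 replicates 1 to 3, with all C3 libraries below all control libraries (log2 fold change -0.20, SE 0.064, edgeR adjusted p = 0.025). The receptor genes ACVR1C and BMPR1B and the ligand genes INHA, INHBA, INHBB, MSTN and NODAL did not pass the count filter. ACVRL1 and ID1, a receptor and a response gene of BMP-type signalling, were higher in the same libraries. The 3 BMP-type SMAD genes and ID3, chosen for mention after their values were seen, did not share a direction, and none was called. SMAD1 had 272 ± 22 and 205 ± 12.3 normalized counts (log2 fold change -0.40, SE 0.11, edgeR adjusted p = 0.010), just outside the gate, and it met the gates as lower in 2 of 13 alternatives. SMAD5 overlapped between groups (0.08, SE 0.067, edgeR adjusted p = 0.47). SMAD9 had 56.9 ± 6.93 and 85.0 ± 2.95 (0.59, SE 0.18, edgeR adjusted p = 0.023), and ID3 768 ± 25.3 and 951 ± 44.9 (0.31, SE 0.071, edgeR adjusted p = 0.0026), both with all C3 libraries above control.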
